A study of Mus musculus with 2 samples.

Results

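Meningeal fibroblasts build the pia, arachnoid and dura around the brain, and 10 of their genes, Bgn, Mgp, Dcn, Ogn, Igf2, Igfbp2, Slc22a6, Ptgds, Thbs2 and Vtn, were followed in hippocampal RNA from mice fed astaxanthin and from control mice. The 10 form a list given by name, with collagens left out, and chosen with earlier results of these data known. Each was found through the RefSeq accession of its array probe. All 10 had a probe that passed the brightness filter (well above background in every spot for both RNAs on both arrays). Of the 16533 genes with a symbol on the array, 13314 did. Where a gene had several probes, the brightest was used.

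The mice were male C57BL/6J animals, 11 weeks old and 26 to 28 g, given 1 week to acclimatize. For the next 4 weeks their powdered diet held, by weight, 0.5% of an AstaReal powder that was 2% astaxanthin, a red carotenoid of the alga Haematococcus pluvialis (the ASX group), or 0% of that powder and a placebo powder in its place (the control group). The RNAs of both groups shared each of 2 two-colour arrays, with the ASX RNA in Cy5 on array 1 and in Cy3 on array 2. The titles give 4 mice per array without saying whether their RNA was pooled, so the arrays were counted as a dye swap of 1 pair of RNAs and thus as 1 replicate; no test of the diet was made, and each SD is the spread between the 2 arrays, which is technical if both held the same RNA. The arrays could also hold different mice.

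Fibroblasts of the meninges secrete the collagen and proteoglycan matrix of the brain's coverings, supply insulin-like growth factor to the cerebrospinal fluid and, in the arachnoid, carry transporters that clear organic anions from it. They lie on the surface of the hippocampus and follow its larger vessels into the tissue. Several of the 10 genes are also transcribed elsewhere: Igf2, Igfbp2 and Ptgds in the choroid plexus, Ptgds in oligodendrocytes, Vtn in pericytes and Mgp in vessel walls. In bulk RNA, fewer cells of a type and less RNA per cell cannot be told apart, and neither can these sources of a transcript.

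Ratios were scaled by loess, which fits the trend of the dye ratio with brightness on each array and subtracts it. The brightest genes still had medians of opposite sign on the 2 arrays, as given below with Ptgds. The alternatives were to centre each array on its median ratio (median centring) or on added control RNAs (spike-in scaling). A further alternative was to take the scanner software's own ratios. With loess scaling, 6 of the 10 genes, Bgn, Ogn, Slc22a6, Mgp, Igf2 and Vtn, had a log2(ASX / control) above 0 on both arrays, as 14.3% of all measured genes did, but with median centring in place of loess only 2 did (background 8.89%) and with spike-in scaling 0 (background 0.323%). With loess none was below 0 on both arrays, where 26.3% of all genes lay. Without background correction 1, Thbs2, was (background 26.3%), with median centring 2 (background 61.4%) and with spike-in scaling 7 (background 82.7%). Dcn, Igfbp2, Ptgds and Thbs2 had opposite signs on the arrays. The differences were small: 0 of the 10 were 1.5-fold higher on both arrays and 0 were 1.5-fold lower (background 0.03% each), and 0 were 1.2-fold higher on both (background 0.233%) or 1.2-fold lower (background 0.33%). Taken alone, array 1 had 8 of the 10 above 0 (background 43.1%), 3 at least 1.2-fold higher (background 4.11%) and 1, Ptgds, at least 1.5-fold higher (background 0.346%). Array 2 alone had 8 above 0 (background 44.9%), 1 at least 1.2-fold higher (background 2.5%) and 0 at least 1.5-fold higher (background 0.0451%).

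The median log2 ratio of the 10 genes was 0.14 on array 1, 0.12 on array 2 and 0.13 in the mean, against -0.03, -0.02 and -0.02 over all measured genes; it was -0.07 with median centring and -0.27 with spike-in scaling, which put the median of all genes at -0.16 and -0.36. Set against the median of all genes, it stood 0.15 higher with loess, 0.16 higher with the scanner software's own ratios and 0.09 higher with median centring or spike-in scaling. Of the 10 means, 9 lay above the median of all genes under each of these 4 scalings, as 50% of genes do by construction. The gene below it was Thbs2 with loess and the scanner's ratios, and Dcn with the other two. Counted on each array, 6 of the 10 were above the median of all genes on both arrays with loess (background 19.9%), 8 with the scanner's ratios (background 20.1%) and 4 with median centring or spike-in scaling (background 26%), a count that lies nearer the background. Median centring and spike-in scaling differ only by a constant on each array. Values set against the median of all genes are thus the same under both by construction, here and for the lists that follow. Their agreement is no separate check.

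**Figure D1:**
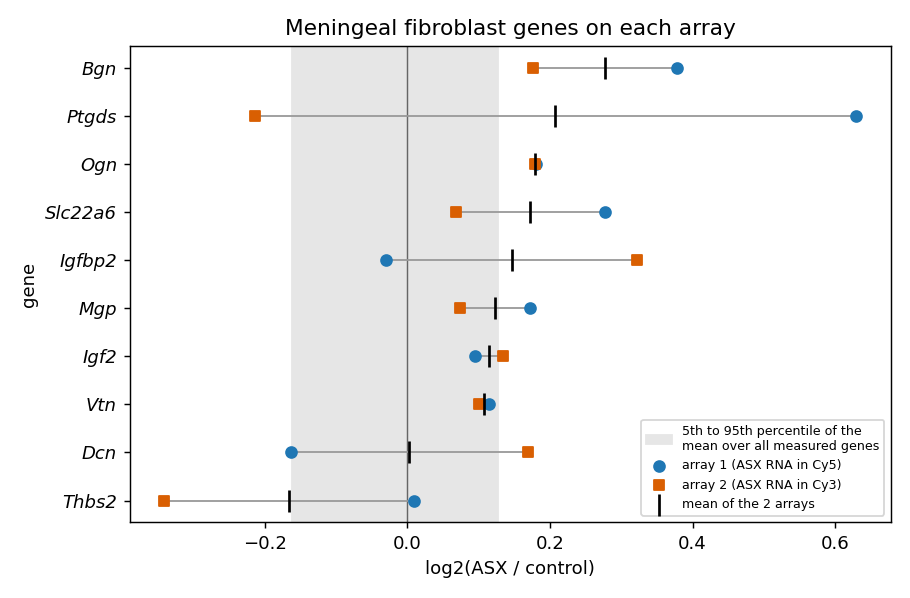
log2(ASX / control) of the 10 genes after loess scaling, on array 1 (circles), on array 2 (squares) and in the mean (ticks); the grey band runs from the 5th to the 95th percentile of the mean over all measured genes, -0.16 to 0.13. Bgn, Ogn, Slc22a6, Mgp, Igf2 and Vtn have both symbols right of 0, which median centring and spike-in scaling do not keep for all of them, while Ptgds has the widest gap between arrays.

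For 4 of the genes that stood above 0 on both arrays with loess, and that have a single start site in the RefSeq promoter table (GRCm38.p6), the 120 bases before the start are shown, to let the reader set their basal promoter elements side by side. The table held 8 of the 10 genes; Mgp and Dcn were the others, and Igf2 had 4 start sites. Each sequence runs 5′ to 3′ on the gene's strand (plus for all 4) and ends 1 base before the start. Capitals mark exact matches on either strand to 3 elements. For the TATA box, the letters searched were TATAAA. For the GC box, the letters searched were GGGCGG. The CCAAT box was searched by the 5 letters of its name.
Bgn, chrX:73483481-73483600: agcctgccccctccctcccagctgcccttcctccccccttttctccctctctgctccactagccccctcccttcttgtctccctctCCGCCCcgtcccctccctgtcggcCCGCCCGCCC
Ogn, chr13:49607895-49608014: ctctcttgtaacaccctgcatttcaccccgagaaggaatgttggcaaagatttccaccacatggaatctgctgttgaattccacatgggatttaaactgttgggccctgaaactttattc
Slc22a6, chr19:8617876-8617995: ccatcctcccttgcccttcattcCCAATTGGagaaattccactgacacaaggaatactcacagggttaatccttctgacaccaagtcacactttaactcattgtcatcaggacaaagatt
Vtn, chr11:78499000-78499119: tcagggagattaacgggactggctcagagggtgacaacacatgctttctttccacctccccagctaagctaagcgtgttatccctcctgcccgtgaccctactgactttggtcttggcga
The Bgn window held 3 GC boxes, all on the minus strand and 2 of them overlapping, and 71.7% of its bases were G or C, against a median of 54.2% over 32851 promoters. The Slc22a6 window held a CCAAT box on each strand, 2 matches that overlap. Ogn and Vtn held none of the 3 motifs. Of all promoter windows of this length, 26.5% held a GC box, 21.3% a CCAAT box and 6.34% a TATA box. A match of letters is a description of the sequence, and the arrays hold no measurement of binding there.

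Bgn, Dcn and Ogn encode biglycan, decorin and osteoglycin, small leucine-rich proteoglycans that bind collagen fibrils in the matrix. Bgn (X, 73483601 to 73495936) had normalised log2 signals of 9.17 in the ASX RNA and 8.79 in the control RNA on array 1, and 8.83 and 8.65 on array 2. The ASX RNA was thus the brighter on both arrays, with log2 ratios of 0.38 and 0.18, a mean of 0.28 ± 0.14 (SD) and a mean fold of 1.21. That mean exceeded the means of 99.5% of measured genes. It was 0.19 with median centring and 0.00 with spike-in scaling, and Bgn was the highest of the 10 under both of these.

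Ogn (13, 49608015 to 49624501) had 10.8 in the ASX RNA and 10.6 in the control RNA on array 1, and 10.3 and 10.1 on array 2. Its ratios, 0.18 on each array, were the closest to each other among the 10 genes (SD 0.00015), with a mean fold of 1.13. With median centring its mean was 0.02 and with spike-in scaling -0.18. Dcn (10, 97479500 to 97518163) had 14.2 in the ASX RNA and 14.3 in the control RNA on array 1, and 13.8 and 13.6 on array 2. The arrays thus pointed opposite ways for Dcn, at -0.16 and 0.17, and its mean of 0.0031 was smaller than its SD of 0.23.

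Of the 14 genes in the proteoglycan family, 12 were measured, Bgn, Dcn and Ogn included. Of the 12, 4 were above 0 on both arrays (background 14.3%), Bgn and Ogn among them, and 2 below (background 26.3%). These shares with loess are also the background for the like counts of every list that follows. The family's median was 0.04 with loess and -0.16 with spike-in scaling, and stood above that of all genes under the 4 scalings. Fmod, the gene of fibromodulin, had 0.08 and 0.21. Aspn, which encodes asporin, had -0.22 and -0.07. Lum, the gene of lumican, outside the naming rule, had 0.40 on array 1 and -0.04 on array 2. None of the family was 1.2-fold apart on both arrays. Of the 12 means, 9 lay above the median of all genes with loess, 8 with the scanner's ratios and 11 with median centring or spike-in scaling.

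Mgp, Thbs2 and Vtn encode proteins that act on the matrix and on cells attached to it. Mgp (6, 136872435 to 136875823), whose product is a vitamin K-dependent inhibitor of calcification and of bone morphogenetic proteins, had 12.7 in the ASX RNA and 12.5 in the control RNA on array 1, and 12.1 and 12.0 on array 2. Its ratios of 0.17 and 0.07 gave a mean of 0.12 ± 0.07 (SD), on the ASX side on both arrays with loess but at -0.08 in the mean with median centring. Among its 11 measured partners in carboxylation and bone morphogenetic protein signalling, Mgp included, 2 were above 0 on both arrays and 3 below. Bmpr2, a bone morphogenetic protein receptor gene, was the other above 0, with 0.18 and 0.27, and Bglap, the osteocalcin gene, had -0.07 and -0.14.

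Thbs2 (17, 14665500 to 14694262), the gene of the matrix glycoprotein thrombospondin 2, was the dimmest of the 10, with spot signals from 119 to 170.5 over local backgrounds of 62 to 67. Its normalised log2 signals were 7.22 in the ASX RNA and 7.21 in the control RNA on array 1, and 6.75 and 7.09 on array 2. It was the only one of the 10 with a mean below 0 after loess, at -0.17 ± 0.25 (SD), and that value came from array 2, since the ratios were 0.01 and -0.34. The scanner software gave that array 2 ratio as -0.41 with an error of 0.25. Of the 8 measured genes in the thrombospondin list, Thbs2 included, 3 were above 0 on both arrays and 0 below. Comp, another family member, had 0.10 and 0.28, and Thbs4 had 0.01 and 0.35.

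Vtn (11, 78499120 to 78502325), the gene of vitronectin, an adhesion protein bound by integrins, had 13.9 in the ASX RNA and 13.8 in the control RNA on array 1, and 13.3 and 13.2 on array 2. Its ratios of 0.11 and 0.10 differed by little (mean 0.11 ± 0.01, SD), and its mean fold was 1.08, but with median centring the mean was -0.11. Of the 7 measured genes among Vtn and its partners, Vtn alone was above 0 on both arrays and 3 were below. Those were Plaur, the urokinase receptor gene, at -0.12 and -0.34, Plau, the urokinase gene, at -0.13 and -0.22, and Itgav, an integrin subunit gene, at -0.16 and -0.02.

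Igf2 and Igfbp2 encode insulin-like growth factor 2 and a protein that binds it. Igf2 (7, 142650768 to 142666816) was the best measured of the 10, since its brightest probe was spotted 10 times on each array. Over those spots the log2 ratio was 0.10 ± 0.02 (SD) on array 1 and 0.13 ± 0.02 on array 2, with signals of 13.2 in the ASX RNA and 13.1 in the control RNA on array 1, and 12.6 and 12.5 on array 2. The spots of Igf2 agreed more closely than those of the typical probe with 10 spots, whose median SD was 0.05 on each array. With loess the ratio of this probe was thus alike over spots and on both arrays, with a mean fold of 1.08. Its mean depended on scaling, at -0.10 with median centring and -0.29 with spike-in scaling. The other Igf2 probe, on 1 spot, had 0.16 and -0.01.

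Igfbp2 (1, 72824480 to 72852474) had 12.3 in the ASX RNA and 12.4 in the control RNA on array 1, and 11.9 and 11.5 on array 2. Its difference lay on array 2, with ratios of -0.03 and 0.32 and a mean of 0.15 ± 0.25 (SD). In the wider insulin-like growth factor list 15 of 21 genes were measured, Igf2 and Igfbp2 included. Of these 4, Igf2 among them, were above 0 on both arrays and 3 below. Igf1r, the receptor gene, had 0.34 and 0.12, with other probes at 0.10 and 0.01 and at 0.08 and -0.03. The binding protein genes Igfbp3, with -0.27 and -0.09, and Igfbp6, with -0.23 and -0.06, were below 0 on both arrays, unlike Igf2. Of the other binding protein genes measured, Igfbp1, outside the naming rule, was above 0 on both arrays with 0.15 and 0.05, and Igfbp4, Igfbp5 and Igfbp7 had opposite signs.

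Slc22a6 encodes a transporter and Ptgds an enzyme. Slc22a6 (19, 8617996 to 8628299), the gene of an organic anion transporter, had 9.94 in the ASX RNA and 9.66 in the control RNA on array 1, and 9.46 and 9.39 on array 2. Its ratios of 0.28 and 0.07 gave a mean of 0.17 ± 0.15 (SD) and a mean fold of 1.13; with median centring the mean was 0.05 and with spike-in scaling -0.15. Of 11 measured genes of anion transport, 3 were above 0 on both arrays, Slc22a6, its relative Slc22a2 (0.14 and 0.22) and the vessel transporter gene Slco1a4 (0.11 and 0.10), and Slco1c1, a thyroid hormone transporter gene, was below 0 with -0.13 and -0.14. Slc22a8, a closely related transporter gene named outside the rule, had 0.18 and -0.07.

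Ptgds (2, 25466709 to 25470110), the gene of prostaglandin D2 synthase, an abundant protein of cerebrospinal fluid, was the brightest of the 10, with 17.0 in the ASX RNA and 16.4 in the control RNA on array 1, and 16.1 and 16.4 on array 2. The RNA labelled with Cy5 was thus the brighter on both arrays, and the ratios, 0.63 and -0.21, had opposite signs. Its mean of 0.21 was far below its SD of 0.60. Over the 267 genes in the brightest 2%, the median ratio was 0.21 on array 1 and -0.17 on array 2, against -0.03 and -0.02 over all measured genes. The part of this pattern of bright genes in the Ptgds values was not tested. The scanner software's own ratios for Ptgds were 0.33 and 0.04. Of 9 measured genes of the prostaglandin D2 pathway, Ptgds included, 1 was above 0 on both arrays and 3 were below. Among the 3 were Ptgs1, a cyclooxygenase gene, at -0.19 and -0.08, and Hpgds, the haematopoietic prostaglandin D synthase gene, at -0.24 and -0.04.

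**Figure D2:**
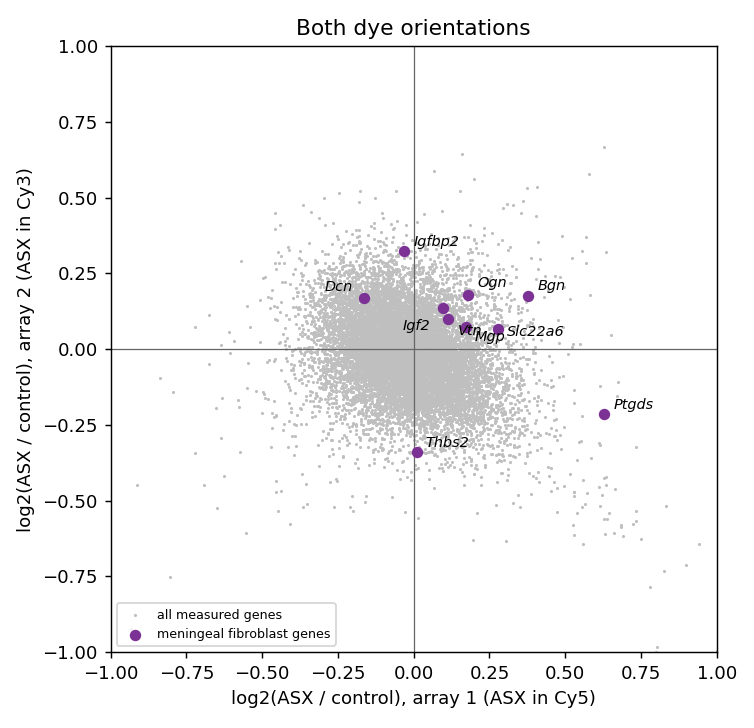
log2(ASX / control) after loess scaling on array 1 (horizontal) against array 2 (vertical) for 13314 measured genes (grey) and the 10 meningeal fibroblast genes (purple); 12 genes lie outside the axes. Genes with the same sign on both arrays lie upper right or lower left. Those with opposite signs lie lower right or upper left, where Ptgds, Thbs2, Dcn and Igfbp2 stand. With this scaling 6 of the 10 lie upper right. The cause of the opposite signs was not tested.

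The mean of 6 of the 10 genes exceeded its SD between arrays, as did that of 31.4% of all measured genes. The scanner software's error for a single log ratio was 0.20 on the log2 scale for most of the 10, which is larger than most of their ratios. Its largest excess over that error among the 10 was for Bgn on array 1, with a ratio of 0.45 and an error of 0.21. Bgn on array 1 was the 1 ratio of the 10 genes, on either array, that the software's error model placed under its p threshold of 0.05, which makes 1 of 10 on array 1 (background 3.92%) and 0 of 10 on array 2 (background 2.67%). In the ASX direction on both arrays 0 of the 10 were under it (background 0.0901%), and in the control direction 0 (background 0.18%). The error model covers single spots and not the diet. Over all measured genes, which do not count as replicates, the Pearson correlation between the arrays was -0.25 with loess.

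A separate list of 35 other genes of pial, arachnoid and dural fibroblasts was also chosen with earlier results of these data known. It held 31 that were measured, among them Lum, Fmod, Aspn and Igfbp6 of the families above. Of these 11 were above 0 on both arrays (background 14.3%) and 5 below (background 26.3%) with loess. The list's median was 0.07, 0.06 on array 1 and 0.05 on array 2, but -0.01 with median centring and -0.21 with spike-in scaling; against the median of all genes it stood 0.09 higher with loess and 0.15 higher with median centring or spike-in scaling. Slc6a20a, an amino acid transporter gene, had 0.19 and 0.41, Gjb2, a connexin gene of the arachnoid, 0.32 and 0.22, and Aldh1a2, the retinaldehyde dehydrogenase gene of the meninges, 0.40 and 0.10. Zic1, a transcription factor gene also transcribed in neurons of the septum and thalamus, went the other way with -0.56 and -0.87, and its other probe had -0.49 and -0.63; it was the 1 gene of this list at least 1.2-fold apart on both arrays. Crabp2, Lox, Cdh1 and Cemip were not well above background, so the arachnoid marker Cdh1 gave no reading.

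The fibrillar and associated collagens, which the 10 genes leave out, had 10 measured genes. Of these 3 were above 0 on both arrays (background 14.3%) and 0 below (background 26.3%). Col1a1 had 0.19 and 0.27, Col1a2 0.21 and 0.18, and Col3a1 0.15 and 0.27, the 3 collagens that fibroblasts make most. The other 7 measured genes had opposite signs on the arrays. The list's median was 0.05 with loess and 0.00 with median centring, which is 0.07 and 0.16 above the median of all genes.

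**Figure D3:**
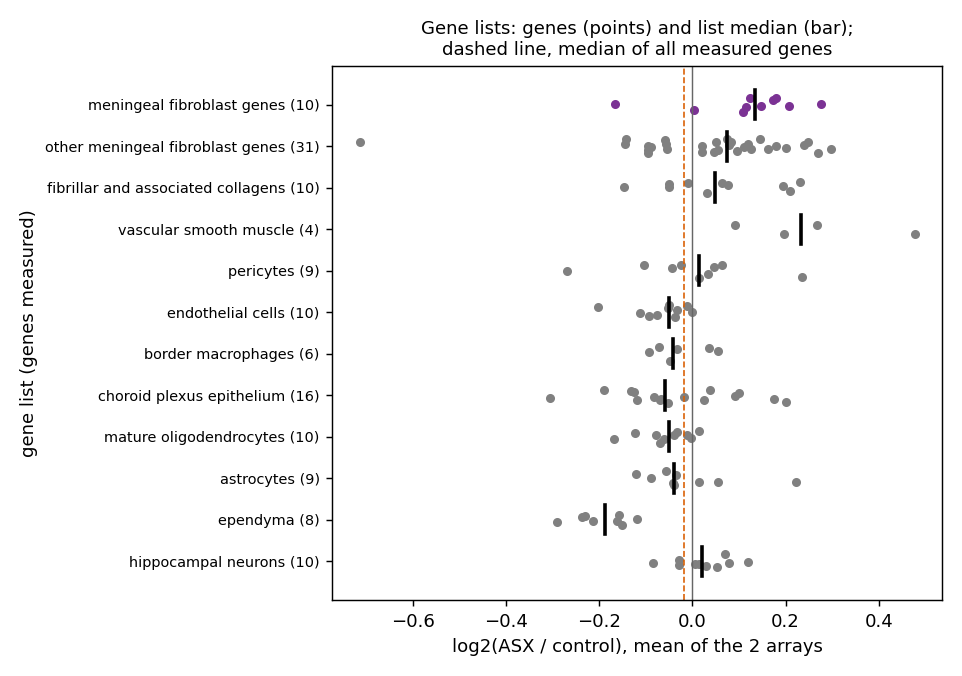
Mean log2(ASX / control) of the 2 arrays after loess scaling for each measured gene (points) of 12 lists, with the list median (bar), a solid line at 0 and a dashed line at the median of all measured genes, -0.02. The 10 meningeal fibroblast genes (purple) have a median of 0.13, which median centring and spike-in scaling put below 0, the ependymal list one of -0.19, and the vascular smooth muscle list, with 4 genes, one of 0.23, which spike-in scaling puts below 0.

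Other cell types that touch the hippocampal surface were read beside these genes. Of 4 measured genes of vascular smooth muscle 3 were above 0 on both arrays (background 14.3%). Cnn1, the calponin gene, had 0.64 and 0.32, Myh11, the smooth muscle myosin gene, 0.20 and 0.33, and Tagln, the transgelin gene, 0.13 and 0.26. The median of the 4 was 0.23 with loess, 0.09 with median centring and -0.10 with spike-in scaling. Under each it stood 0.25 above the median of all genes. Cnn1 alone was 1.2-fold higher on both arrays (background 0.233%). Summed spot signals of the list were 16575 in the ASX RNA and 17299 in the control RNA on array 1, and 9817 and 13610 on array 2. These sums are of signals before normalization, which were lower in the ASX RNA for 92.8% of measured genes on array 1 and 97.2% on array 2, so here and for the lists that follow they give the level of a list and no direction. Des was not well above background. The part of smooth muscle RNA in the values of Mgp, Bgn and the other genes was not tested.

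Pericyte and endothelial lists had medians within 0.05 of that of all genes under the 4 scalings, while the border macrophage list lay 0.02 below it with loess, 0.07 below it with the scanner's ratios and 0.14 above it with median centring or spike-in scaling. Of 9 measured pericyte genes 3 were above 0 on both arrays (background 14.3%) and 2 below (background 26.3%). Among them were Pdgfrb, a growth factor receptor gene, at 0.39 and 0.08, and Cspg4, the NG2 proteoglycan gene, at -0.27 and -0.26. Of 10 endothelial genes 0 were above 0 on both arrays (background 14.3%) and 2 were below (background 26.3%). Of 6 genes of border macrophages, which live among meningeal fibroblasts, 1 was above 0 on both arrays and 3 below; Mrc1, the mannose receptor gene, had -0.10 and -0.08. Their summed spot signals were 2172 in the ASX RNA and 2606 in the control RNA on array 1, and 1631 and 1986 on array 2.

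In the choroid plexus list, a second source of Igf2, Igfbp2 and Ptgds, 4 of 16 measured genes were above 0 on both arrays (background 14.3%) and 7 below (background 26.3%). Ttr, its most abundant marker, named outside the rule, had 0.08 and 0.12, Aqp1, a water channel gene, 0.26 and 0.14, and Calml4 -0.40 and -0.21. Its summed spot signals were 75990 in the ASX RNA and 84478 in the control RNA on array 1, and 45105 and 75329 on array 2. Mature oligodendrocytes, a second source of Ptgds, had 0 of 10 genes above 0 on both arrays (background 14.3%) and 2 below (background 26.3%). The ependymal list had 0 of 8 above 0 on both arrays (background 14.3%) and 7 below (background 26.3%). Its median was -0.19 with loess and below that of all genes under the 4 scalings. In it Dynlrb2, a dynein light chain gene, had -0.29 on each array. Apart from Cnn1, Zic1, Cspg4 and Dynlrb2, 0 genes of the lists named so far were 1.2-fold apart on both arrays. The part of these cells in the values of the 10 genes was not tested.

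**Figure D4:**
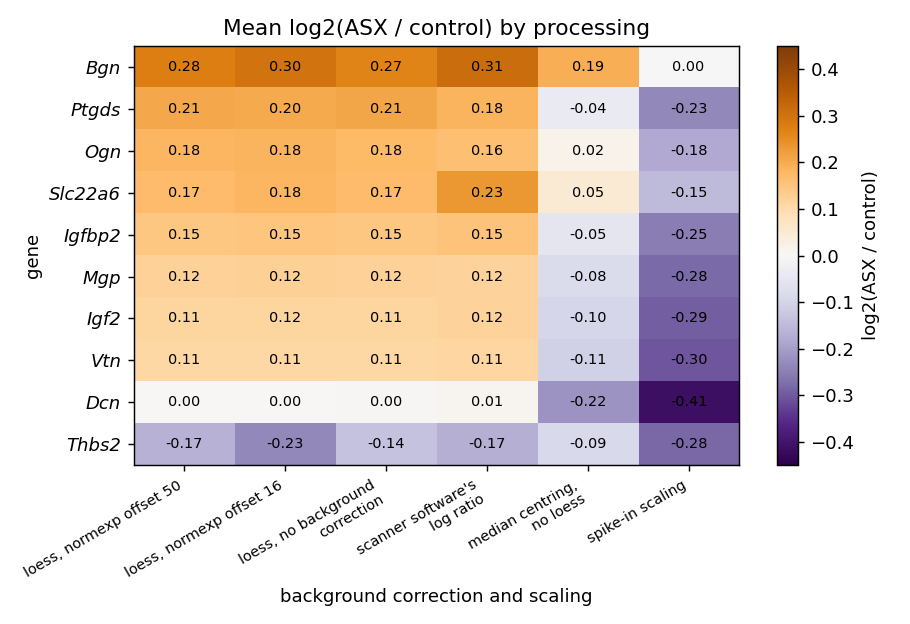
Mean log2(ASX / control) of the 2 arrays for each of the 10 genes (rows) under 6 ways of background correction and scaling (columns), with the value printed in each cell. The first 4 columns are alike, with Bgn between 0.27 and 0.31; without loess, median centring leaves Bgn, Slc22a6 and Ogn above 0 and spike-in scaling puts every gene at or below 0.

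All 10 hippocampal neuron markers with a matched probe passed the brightness filter, 2 of them above 0 on both arrays and 0 below, and the markers that passed the filter included Prox1, the transcription factor gene of dentate granule cells, and Wfs1, a marker of CA1 pyramidal cells. On the arrays as a whole, between 75.8% and 78.2% of the 43379 transcript spots were well above background for each RNA, and the number of arrays limits the precision. Astrocyte genes had 2 of 9 above 0 on both arrays and 0 below, and microglial genes 1 of 7 above and 4 below. The background of these counts was 14.3% above and 26.3% below. Blood genes (2 of 5 above 0 on both arrays, 3 below) and pituitary genes (4 of 6 above, 0 below) held genes with larger mean ratios, in size, than any of the 10, with S100a9 at 1.17 and 1.38 and Hba-a1 at -0.45 and -0.47, and with Prl at 1.72 and 1.53 and Cga at 0.58 and 0.58. Their part in the values of the meningeal genes was not tested.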

How the data were processed

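The authors read the arrays with Agilent Feature Extraction 11.0.1.1, per the submitters' processing notes and the file headers. Deposited intensities were the median pixel brightness of each spot, not normalized; the processed intensity was background-subtracted and dye-normalized by that software. The deposited log ratio and the deposited value table were log10 of Cy5 over Cy3, with a technical p-value and an error score per spot in the deposited files. The files were checked to hold 45018 features, 1639 of them controls. Here median intensities were corrected with limma 3.58.1 in R 4.3.3 (normexp, offset 50) and normalized by loess within each array with controls at weight 0, and ratios were turned to log2(ASX / control). Outlier spots (3) were left out; 0 spots were saturated. Spots of a probe were averaged. Probes were named through RefSeq accessions of assembly GRCm38.p6 (23372 of 41171 matched), and gene positions are those of that assembly, not of the array's own design. A probe had to be well above background in every spot, for both RNAs and on both arrays. The steps were tested on simulated arrays, with planted ratios larger than the mean of any of the 10 genes and no dye effect particular to a gene. That test does not cover ratios as small as theirs. With the arrays counted as 1 replicate no test was made; genes were counted by sign and by 1.2-fold and 1.5-fold on both arrays. The 10 genes, the 22 lists and the alternatives were chosen with earlier results of these data known. The rule for naming took, from each list, up to 4 measured genes with the largest absolute mean ratio among those with 1 sign on both arrays; exceptions are marked in the text.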

Additional observations from a re-analysis of the deposited data

How the results depend on the processing

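The sign of the median ratio depended on scaling. Of the single genes, Thbs2 had a mean below 0 under every scaling. Bgn, Ogn and Slc22a6 fell to 0 or below only with spike-in scaling. With median centring without loess, the median of the 10 genes was -0.069, 2 of the 10 were above 0 on both arrays (background 8.89%), and the median of the other meningeal genes was -0.0095. With spike-in scaling these were -0.27, 0 (background 0.323%) and -0.21. The count against the median of all genes was added after the data were seen. With the mean over probes the median of the other meningeal genes was 0.054. Array 1 or array 2 alone, where dye is not balanced, gave medians of 0.12 to 0.14 for the 10 and 0.053 to 0.063 for the other meningeal genes. On each, 8 of 10 were above 0 (background 43.1% on array 1 and 44.9% on array 2). At least 1.2-fold higher were 3 of the 10 on array 1 (background 4.11%) and 1 on array 2 (background 2.5%). At least 1.5-fold higher were 1 on array 1, Ptgds (background 0.346%), and 0 on array 2 (background 0.0451%). The causes were not tested. Under the other alternatives (offset 16, no background correction, the scanner's ratios, the deposited value table, and 2 other brightness filters) the medians and the counts above 0 or past a fold changed by less than the spread between arrays or 1.5 times. Of the 10 single genes, 8 moved by more than their SD between arrays with spike-in scaling, 4 with median centring, and 1, Ogn, under each of offset 16, no background correction, the scanner's ratios and the value table. In the last of these settings Ogn stayed between 0.16 and 0.18, and it counted as moved because its SD was only 0.00015. No paired analysis was possible because the arrays were counted as 1 pair of RNAs, with no second replicate. Dim genes such as Thbs2 are limited by signal over background.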
